A study of Mus musculus with 288 samples.

Results

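Gene expression in the mouse heart after intermittent hypoxia (IH), a repeated fall in inhaled oxygen used as a model of obstructive sleep apnea, was compared between day and night. Of the 288 libraries of the series, 23 entered the comparison. They were chosen by tissue, treatment and labelled time alone: 11 libraries from 1:30, 4:30, 7:30 and 10:30 h form the day group, and 12 libraries from 13:30, 16:30, 19:30 and 22:30 h form the night group. Replicate 2 at 10:30 h was left out because it held transcripts of the cerebellum. A gene was tested if its mean over the 23 libraries reached 5 TPM (transcripts as a share of all transcripts of a library, scaled to a fixed total), which 8227 of the 35904 listed genes did. The vascular peptide gene Edn1 lay just inside that limit, with a mean of 5.01 TPM, and the clock gene Clock just outside it, with 4.95 TPM.

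All mice were wild-type C57BL/6J males, aged 8 weeks when the exposure began. Both groups had spent 7 days under cycles between 21% and 8% oxygen in their light phase, with room air in their dark phase, and were then moved to darkness around the clock in room air. Hearts were taken on the second day of that darkness, every 3 hours, so no mouse of either group was under IH or saw light when it was sampled, and day and night refer to the labelled hours only. Each library came from 1 mouse, with 3 mice per time point and 2 at 10:30 h. Hearts of 24 mice of the same strain, sex and age, kept in room air throughout (normoxia) and sampled at the same 8 time points, served to ask whether a difference between day and night was particular to IH.

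Nearly every cell of the heart runs a circadian clock, a feedback loop of transcription factors. BMAL1 (encoded by Arntl) pairs with CLOCK or NPAS2 and switches on genes that carry an E-box, among them the Per and Cry genes, Nr1d1 and Dbp. The PER and CRY proteins then block that pair, REV-ERB proteins (Nr1d1 and Nr1d2) silence Arntl and Nfil3, and the PAR bZIP factors DBP, TEF and HLF carry the rhythm on to further genes through D-boxes, which NFIL3 represses. In the heart this clock is known to time fuel use, electrical activity and growth.

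The libraries were recognisable as heart. The contractile genes Myh6, Tnnt2, Tnni3, Actc1 and Myl2 were each at 2429 TPM or more in every library, and the deposited values summed to between 995565 and 998510 TPM. Read counts were not analysed here, and these values do not show how deeply each library was sequenced. The number of genes above 0 TPM ranged from 20316 to 22793. Of 17 measures of library make-up (the number of genes detected and the summed TPM of 16 marker lists), 0 differed between day and night at an adjusted p of 0.05 (permutation tests, 2-sided, 100000 resamples). The smallest p-value was that of the atrial cardiomyocyte markers, with medians of 4548 TPM by day and 5253 TPM by night (permutation test, p = 0.0265, adjusted p = 0.451).

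Some libraries stood apart in these markers. Lymphocyte markers summed to 205 and 299 TPM in the 2 libraries of 10:30 h and to 699 TPM in replicate 2 of 16:30 h, against 5.68 to 28.8 TPM in the other 20. The left-out replicate 2 of 10:30 h was at 70.3 TPM. Every library of 10:30 h thus lay above those 20, so the hour and the libraries cannot be told apart there. Atrial markers summed to only 360 TPM in replicate 2 of 7:30 h, against at least 2930 TPM elsewhere. Lung markers reached 942 TPM in replicate 3 of 7:30 h and 512 TPM in replicate 1 of 19:30 h, over a median of 225 TPM. These 6 libraries fall 4 to the day group and 2 to the night group, and counts are given with and without them below. Without the libraries high in lymphocyte markers no library of 10:30 h remains. Without all 6, replicates 2 and 3 of 7:30 h are gone as well. Counts without them therefore cannot tell these libraries from their hours. The part of the 6 libraries in the results was not tested beyond that. In whole tissue, fewer cells of a type and less RNA per cell cannot be told apart.

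**Figure D1:**
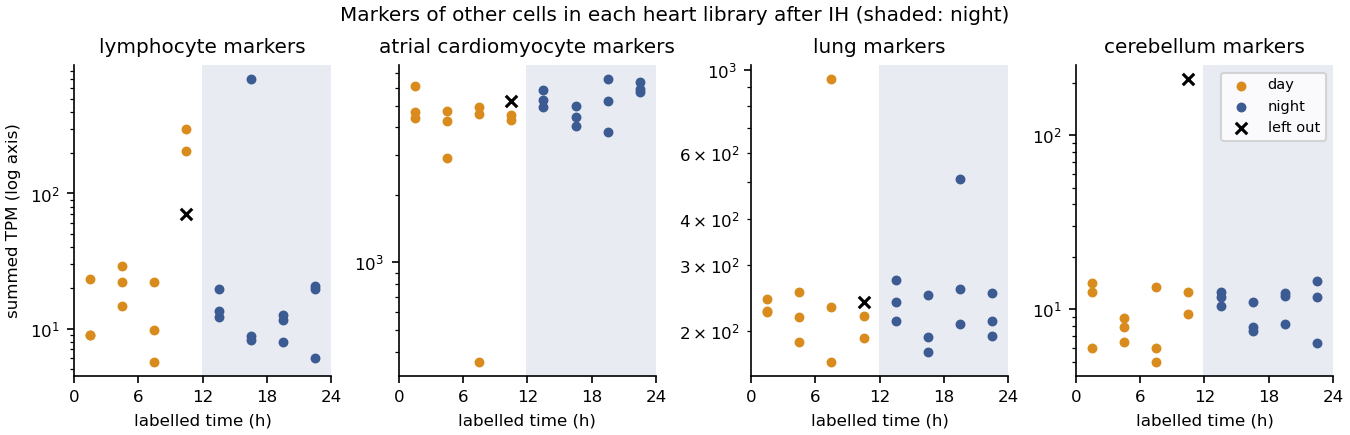
Summed TPM (log axis) of the lymphocyte, atrial, lung and cerebellum markers in each heart library after IH, against the labelled time in hours; orange points are day libraries, blue points night libraries and the cross the library left out. The lymphocyte panel has 3 points above 200 TPM, the atrial panel 1 point at 360 TPM, and the left-out library stands at 209 TPM in the cerebellum panel, where the others lie between 4.99 and 14.6 TPM.

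Day against night separated few genes. With limma on log2(scaled TPM + 0.5), 18 of 8227 genes (0.219%) passed an adjusted p of 0.05, 9 of them higher by day and 9 higher by night, and 3 of the 18 (Nr1d1, Cry1 and Rasl10a) also differed at least 1.5-fold. The sizes of the called differences ran from 0.21 to 2.09 on the log2 scale. Without adjustment, 746 genes (9.07%) had a p-value under 0.05, of which 525 were higher by night and 221 by day, while the median difference over all genes was -0.02. The number of calls was not steady. It was 0 without the libraries of replicate 1 and 0 without those of replicate 3 (610 and 614 genes with an unadjusted p under 0.05), and 9 without replicate 2. It was 2 without 4:30 h or without 7:30 h, and 88 without 1:30 h. Leaving out the 3 libraries high in lymphocyte markers gave 35 calls and leaving out 16:30 h replicate 2 alone 33, while 8 genes were called without 7:30 h replicate 2 and 8 without the 2 libraries high in lung markers. With all 6 left out 16 genes were called, 2 of them, Nr1d1 and Cry1, shared with the 18.

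Nr1d1, which encodes the repressor REV-ERB alpha (ENSMUSG00000020889, GRCm38 chromosome 11, 98767932 to 98775333, minus strand), had the largest difference among the called genes. By day its level was 13.4, 16.4 and 22.9 TPM at 1:30 h, 35.4, 52.2 and 52.8 TPM at 4:30 h, 31.9, 53.6 and 58.0 TPM at 7:30 h and 21.9 and 38.0 TPM at 10:30 h. By night it was 15.5, 19.3 and 20.8 TPM at 13:30 h, 4.41, 4.58 and 5.88 TPM at 16:30 h, 3.32, 3.88 and 8.54 TPM at 19:30 h and 5.97, 7.52 and 8.85 TPM at 22:30 h. The groups overlapped only where they meet, at 1:30 h and 13:30 h. The log2 difference between day and night was 2.09 ± 0.30 (SE, n = 11 and 12, limma adjusted p = 0.00185), a 4.26-fold higher level by day. It kept its call in 24 of 26 alternative settings, with differences of 1.84 to 2.48, and lost it without replicate 1 and without replicate 3.

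Cry1, a repressor of the BMAL1 and CLOCK pair (ENSMUSG00000020038, GRCm38 chromosome 10, 85131700 to 85185064, minus strand), moved the other way. It was at 1.98, 2.52 and 2.64 TPM at 4:30 h and at 6.37 and 6.49 TPM at 10:30 h, and at 6.62, 7.48 and 8.51 TPM at 13:30 h. From 16:30 h on it stayed between 6.83 and 10.0 TPM. Cry1 was the only one of the 18 called genes whose groups did not overlap: the highest day library had 6.49 TPM and the lowest night library 6.62 TPM. All 18 were picked for a difference between day and night, so this is a description and no further evidence. The log2 difference was -0.91 ± 0.13 (SE, n = 11 and 12, limma adjusted p = 0.00185), which is 1.88-fold higher by night. The call held in 23 of 25 settings and was lost in the same 2 as that of Nr1d1.

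Besides Nr1d1, 7 genes higher by day are described here, with differences of 0.29 to 0.50 on the log2 scale. Xrn2, a nuclear exonuclease that helps end transcription, had day levels of 9.30 to 14.04 TPM with a median of 10.9 TPM, and night levels of 7.47 to 12.5 TPM with a median of 8.43 TPM (0.39 ± 0.07, SE, limma adjusted p = 0.0154). Tmem86a, which encodes a membrane protein, had medians of 12.6 and 9.86 TPM (0.50 ± 0.10, adjusted p = 0.0335). Cygb, which encodes the oxygen-binding protein cytoglobin, had medians of 45.1 and 37.5 TPM (0.38 ± 0.08, adjusted p = 0.0460). Dcaf4, Commd10, Ubald1 and Tlcd2 made up the rest, with adjusted p-values from 0.0139 to 0.0460. In each of these 7 genes the groups overlapped. Where the call of Nr1d1 was lost in 2 settings, those of Xrn2, Dcaf4 and Commd10 were lost in 9 of the settings that tested them (25 or 26), those of Tmem86a, Cygb and Ubald1 in 14 and that of Tlcd2 in 16.

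Of the other 8 genes higher by night, Rasl10a, which encodes a small GTPase of the RAS family, had the largest difference. Its day levels ran from 2.30 to 5.66 TPM with a median of 3.81 TPM, and its night levels from 5.08 to 9.36 TPM with a median of 6.72 TPM, so that the groups overlapped narrowly. The log2 difference was -0.63 ± 0.11 (SE, limma adjusted p = 0.0126). The histone gene H2aw had medians of 9.31 TPM by day and 12.9 TPM by night (-0.40 ± 0.07, adjusted p = 0.0126). P4ha2, which encodes a subunit of the prolyl 4-hydroxylase that matures collagen and is a known target of hypoxia-inducible factor (HIF), had medians of 13.8 and 20.7 TPM (-0.38 ± 0.08, adjusted p = 0.0454). Nus1, needed for dolichol synthesis and so for protein glycosylation, and Ubtf, which drives transcription of ribosomal RNA, had the smallest differences, -0.24 ± 0.05 (adjusted p = 0.0318) and -0.21 ± 0.05 (adjusted p = 0.0460). Rhbdl3, Pxdc1 and Nudt4 completed the group, with log2 differences between -0.40 and -0.30. Of these 8, H2aw lost its call in 7 of the 24 to 26 settings, Rasl10a in 8, P4ha2, Nus1 and Rhbdl3 in 14, Pxdc1 in 16, and Nudt4 and Ubtf in 17. In the alternative settings that kept them tested, 0 of the 18 genes changed direction.

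**Figure D2:**
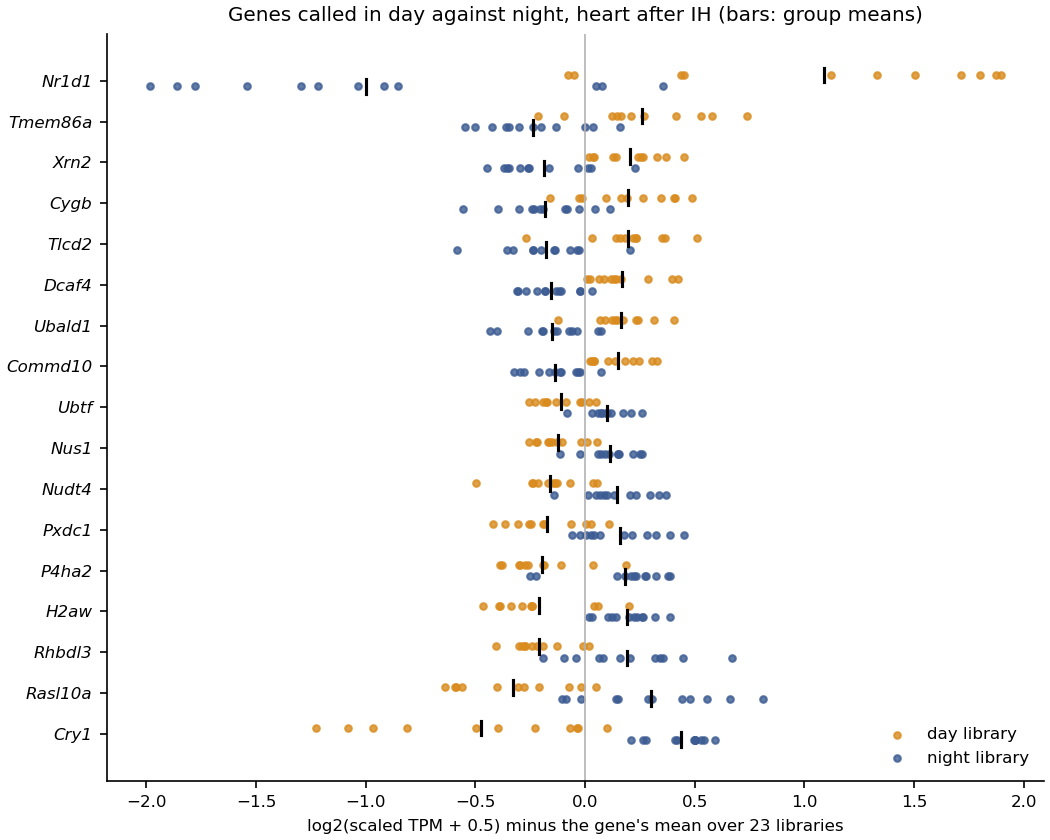
The called genes of day against night described in the text, 17 of the 18, with 1 point per library (orange day, blue night; n = 11 and 12) at log2(scaled TPM + 0.5) minus the gene's mean over the 23 libraries, and black bars at the group means. Nr1d1 spans the widest range, Cry1 is the only gene whose points do not overlap, and in the other genes shown the group means differ by at most 0.63 while points of both groups mix.

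A gene that peaks near the border between day and night can have like means in both, so the same values were fitted with a cosine of 24 hours, which gives an amplitude (the mean to peak distance, on the log2 scale) and an acrophase (the labelled hour of the peak). By this limma F-test 359 of 8227 genes (4.36%) were called rhythmic at an adjusted p of 0.05, and 17 of the 18 genes called in day against night were among them. P4ha2 was not (adjusted p = 0.0772). The median amplitude was 0.29 over the 359 genes and 0.08 over all genes tested. An amplitude of at least 0.5 was reached by 54 of them and one of at least 1 by 7. The number of calls was 92 to 195 without 1 of the replicate numbers, 218 to 311 without 1 of the time points, 250 without the 3 libraries high in lymphocyte markers and 173 without all 6 libraries.

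Peak times of the called genes were spread over the day. From 0 to 3 h 71 genes had their acrophase, followed by 14 from 3 to 6 h, 21 from 6 to 9 h and 46 from 9 to 12 h. In the night hours 62 genes peaked from 12 to 15 h, 40 from 15 to 18 h, 39 from 18 to 21 h and 66 from 21 to 24 h. In all, 245 of the 359 genes (68.2%) peaked within 3 hours of 0 or 12 h, the borders between the groups, against 56.7% of all genes tested, and 114 peaked in the middle of the day or night hours. The bin from 21 to 24 h, with 18.4% of the called genes, held 20.3% of all genes tested. All 9 genes called higher by day had their acrophase between 3 and 9 h, and those 8 of the 9 night-higher genes that the cosine called had theirs between 15 and 21 h.

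**Figure D3:**
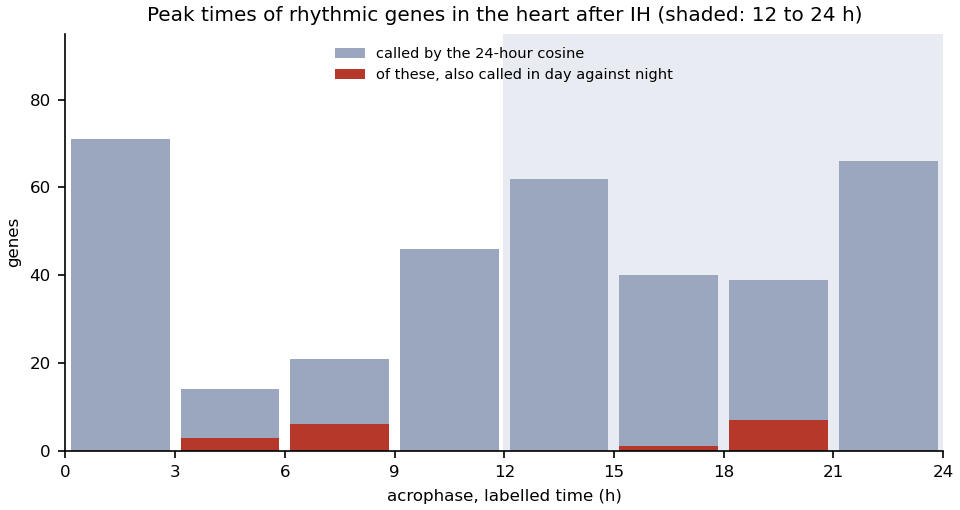
Number of genes called by the 24-hour cosine in each 3-hour bin of acrophase (grey-blue bars), and of these the genes also called in day against night (red bars); the shaded area is 12 to 24 h. The tallest bars, 71 genes at 0 to 3 h and 66 at 21 to 24 h, hold none of the 17 red genes, which sit at 3 to 9 h and 15 to 21 h.

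The clock genes followed one another around the day. Of the activators, Arntl was at 6.85 to 10.48 TPM at 1:30 h, at 0.542 to 1.12 TPM at 13:30 h and at 8.58 to 11.5 TPM at 22:30 h. Its day levels (median 3.54 TPM) and night levels (median 5.14 TPM) spanned almost the same range. All 3 activators had means below 5 TPM over the 23 libraries, and their tests are given with the limit lowered to 1 TPM. There Arntl had an amplitude of 1.58 and an acrophase of 23.04 h (limma adjusted p = 3.09e-08), Npas2 1.06 and 23.7 h (adjusted p = 2.52e-07) and Clock 0.34 and 23.1 h (adjusted p = 0.00442). None of the log2 differences between day and night exceeded 0.26 in size, and none was called.

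The REV-ERB and PAR bZIP genes peaked later. Nr1d1 had an amplitude of 1.75 with its peak at 7.1 h (adjusted p = 4.15e-11) and its paralog Nr1d2 1.11 at 10.1 h (adjusted p = 2.45e-08). Dbp had the smallest adjusted p of all genes (6.59e-12), with an amplitude of 2.03 and a peak at 9.7 h. Its means ran from 12.8 TPM at 1:30 h over 54.5, 109, 100 and 85.3 TPM at 4:30 to 13:30 h down to 24.8, 12.1 and 7.62 TPM at 16:30 to 22:30 h. Dbp was nevertheless not called in day against night (1.27 ± 0.52, SE, adjusted p = 0.433). The spread within each group was wide: day libraries ran from 11.1 to 128 TPM and night libraries from 6.50 to 98.8 TPM. Tef peaked at 11.2 h (amplitude 0.76) and Hlf at 11.1 h (0.73), with day and night medians of 49.5 and 48.4 TPM for Tef. Nfil3, the repressor that competes with these factors, peaked at 21.1 h with an amplitude of 1.12 (adjusted p = 4.74e-08). Its mean was 2.56 TPM at 7:30 h and 16.49 TPM at 22:30 h, and its difference between day and night was -0.94 ± 0.28 (adjusted p = 0.185). Rora, a receptor that activates Arntl, showed an amplitude of 0.09 with the limit at 1 TPM (adjusted p = 0.695).

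Among the repressors of the loop, Per1 peaked at 10.9 h (amplitude 0.89, adjusted p = 0.000337), Cry2 at 11.96 h (0.41, adjusted p = 0.000454) and Cry1 at 18.01 h (0.70, adjusted p = 3.88e-06). Bhlhe40 and Bhlhe41, which encode the repressors DEC1 and DEC2, peaked at 9.0 and 10.1 h with amplitudes of 0.61 and 0.57. With the limit at 1 TPM, Per2 peaked at 12.5 h (1.22), Per3 at 11.2 h (1.12) and Ciart at 10.6 h (1.00). All 11 clock genes described here that were tested at 5 TPM passed the cosine test and 2 of them, Nr1d1 and Cry1, passed day against night. The calls of Dbp, Nr1d1, Nr1d2, Tef, Hlf, Nfil3 and Cry1 by the cosine held in every setting tried in which they were tested, and that of Per1 in 22 of 24. Of the enzymes that modify clock proteins, 1 of 10 was called by the cosine (all genes 4.36%), the deubiquitinase Usp2, with its peak at 11.9 h.

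**Figure D4:**
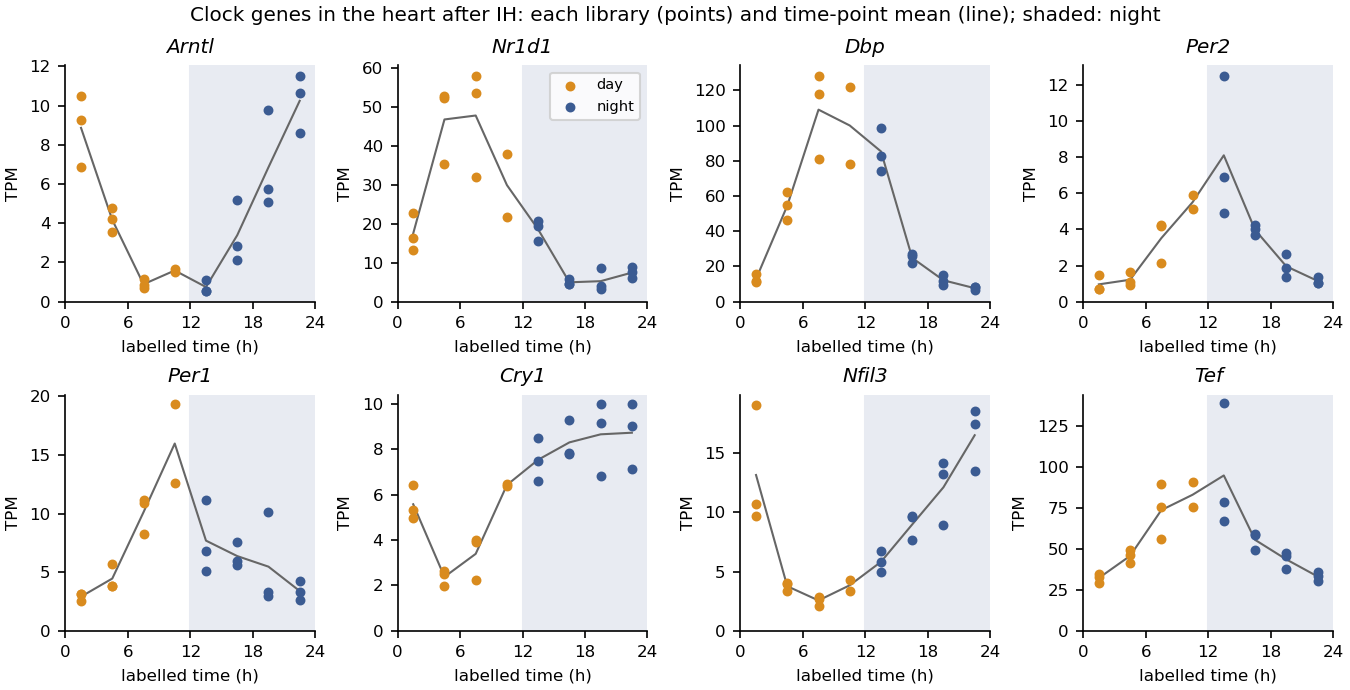
TPM of 8 clock genes in each heart library after IH against the labelled time in hours, with 1 point per library (orange day, blue night) and a grey line through the time-point means (3 libraries each, 2 at 10:30 h). Arntl is lowest from 7:30 to 13:30 h and Nfil3 from 4:30 to 10:30 h, Nr1d1 is highest at 4:30 and 7:30 h, Dbp from 7:30 to 13:30 h, and Per2 and Tef at 13:30 h, while Cry1 stays high through the night.

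Promoters of the clock genes were searched for the E-box CACGTG, the site bound by BMAL1 with CLOCK, in RefSeq promoters of mouse build GRCm38.p6 that span 250 bases before to 50 bases after a start. The palindrome reads the same on both strands. It was found in 7.15% of all 32851 promoters, in 4 of the 6 clock repressors with a promoter in the table (Cry1, Per1, Bhlhe41 and Ciart, of 8 in the list), in 1 of 4 PAR bZIP genes with Nfil3 (Tef) and in 0 of 3 receptor genes matched, Nr1d1 among them. The D-box TTATGTAA, searched on both strands, was found in 0.938% of all promoters, in 1 of the 6 repressors (Per3), in 0 of the 4 PAR bZIP genes with Nfil3 and in 0 of the 3 receptor genes. The background counts promoters, while the lists count genes, and a gene can have more than 1 promoter. Per1 and Tef have 2 listed promoters each, of which 1 is shown, and distances are to the start of the promoter shown. A match is a description of these letters and not evidence of binding. The 3 promoters below are shown because they belong to genes of this loop that peaked at 18.01 h (Cry1), 10.9 h (Per1) and 11.2 h (Tef). They lie at chr10:85185005-85185304 (minus strand), chr11:69098699-69098998 (plus strand) and chr15:81802423-81802722 (plus strand), are written 5′ to 3′ on the strand of the gene, and carry the E-box in capitals, which begins 60, 166 and 127 bases before the start.
Cry1: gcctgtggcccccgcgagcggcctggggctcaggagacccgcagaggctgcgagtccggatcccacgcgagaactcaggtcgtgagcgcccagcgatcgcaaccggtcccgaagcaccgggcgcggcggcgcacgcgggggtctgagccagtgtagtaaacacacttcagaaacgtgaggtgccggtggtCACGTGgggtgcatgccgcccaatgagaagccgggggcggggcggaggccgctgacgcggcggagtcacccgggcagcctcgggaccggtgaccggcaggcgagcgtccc
Per1: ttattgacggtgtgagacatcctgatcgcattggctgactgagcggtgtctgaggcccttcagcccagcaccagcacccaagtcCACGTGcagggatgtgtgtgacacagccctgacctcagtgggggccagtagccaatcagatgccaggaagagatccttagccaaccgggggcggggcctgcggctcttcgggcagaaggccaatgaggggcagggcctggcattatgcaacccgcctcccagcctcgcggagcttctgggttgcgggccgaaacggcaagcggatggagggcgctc
Tef: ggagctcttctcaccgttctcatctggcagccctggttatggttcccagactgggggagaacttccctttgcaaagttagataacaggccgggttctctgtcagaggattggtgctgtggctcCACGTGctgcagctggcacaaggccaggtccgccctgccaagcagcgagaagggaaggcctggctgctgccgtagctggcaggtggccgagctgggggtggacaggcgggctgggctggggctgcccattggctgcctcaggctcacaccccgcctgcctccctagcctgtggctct

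Of the lists searched, that of the endoplasmic reticulum (ER) chaperones held the most genes called by the cosine. These chaperones and their partners fold and check the proteins that a cell secretes or places in its membranes. The cell makes more of them when the load of such proteins grows. The list also holds genes that do not encode chaperones, Xbp1, Sel1l and Herpud1 among them, and all 17 are called ER chaperones here for short. Of the 17 genes, 0 were called in day against night, where the background was 0.219%. All 17 had a log2 difference below 0, as had 59.6% of all genes tested. Unadjusted p-values under 0.05 were found for 11, against 9.07% of all genes. Their median difference was -0.22, against -0.02 over all genes tested. With TPM as deposited it was -0.28, against -0.09 over all genes. By the cosine 14 of the 17 were called, where the background was 4.36%. Dnajb9, Canx and Sel1l were not. Of the 14, 13 had an acrophase between 19.9 and 22.47 h, and Herpud1, which marks faulty proteins for disposal, peaked at 14.9 h.

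Hspa5 encodes BiP, the main HSP70 of the ER. Its time-point means were 240 TPM at 1:30 h, 171 TPM at 4:30 h, 140 TPM at 7:30 h and 132 TPM at 10:30 h, then 187, 189, 248 and 291 TPM at 13:30 to 22:30 h. Day libraries of Hspa5 ran from 90.5 to 306 TPM and night libraries from 143 to 335 TPM, so the groups overlapped widely; the amplitude was 0.46 with a peak at 22.0 h (limma adjusted p = 0.00121). Sdf2l1, a partner of BiP, had the largest amplitude of the list, 0.66 at 21.7 h (adjusted p = 1.19e-06), with means of 7.62 TPM at 7:30 h and 21.7 TPM at 19:30 h. Manf, a secreted protein that is retained by BiP, went from 50.8 TPM at 7:30 h to 127 TPM at 22:30 h (0.55 at 21.7 h, adjusted p = 9.17e-06). The ER form of HSP90, Hsp90b1, went from 82.1 to 162 TPM at the same hours (0.37 at 21.7 h, adjusted p = 3.12e-06). The smallest adjusted p-values in day against night belonged to Dnajc3, with -0.22 ± 0.07 (adjusted p = 0.253), Hsp90b1, with -0.30 ± 0.10 (adjusted p = 0.282), and Herpud1, with -0.39 ± 0.13 (adjusted p = 0.303).

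Over the list, 16 of 17 genes had their lowest time-point mean at 7:30 or 10:30 h and 14 of 17 their highest at 22:30 or 1:30 h. Libraries that stood apart fall at these hours: both libraries of 10:30 h were high in lymphocyte markers, and 2 of the 3 at 7:30 h were low in atrial or high in lung markers. With those and the other doubted libraries left out, no library of 10:30 h remained and 7 of the 17 were called by the cosine. The median difference between day and night was then -0.09, and 1 gene had an unadjusted p-value under 0.05. The cosine called 14 of the 17 without 10:30 h alone and 14 without 7:30 h alone. Without replicate 1 the cosine called 9 of them and without replicate 3 it called 6.

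The promoters of these genes were searched for the ER stress response element, 2 short sites (CCAAT and CCACG) held 9 bases apart, on both strands. It was present in 39 of 32851 promoters (0.119%), among them 7 of the 15 ER chaperones with a promoter in the table (Calr, Canx, Creld2, Dnajc3, Hsp90b1, Hspa5 and Pdia6, of 17 in the list). Canx, which carries it, was not called by the cosine, and Manf and Sdf2l1, which were called, are not among the 7. The element is named for the stress response of the ER, so its share in an ER list is no finding about these hearts. The background again counts promoters, while the list counts genes. A match describes these letters and is evidence of neither binding nor a rhythm. The 3 promoters below, RefSeq on GRCm38.p6, are shown because these genes carry the element and were called. They lie at chr2:34771840-34772139 (plus strand), chr10:86705395-86705694 (minus strand) and chr15:88819396-88819695 (plus strand), are written 5′ to 3′ on the strand of the gene, and show each match in capitals, 1 in Hspa5, 2 in Hsp90b1 and 1 in Creld2.
Hspa5: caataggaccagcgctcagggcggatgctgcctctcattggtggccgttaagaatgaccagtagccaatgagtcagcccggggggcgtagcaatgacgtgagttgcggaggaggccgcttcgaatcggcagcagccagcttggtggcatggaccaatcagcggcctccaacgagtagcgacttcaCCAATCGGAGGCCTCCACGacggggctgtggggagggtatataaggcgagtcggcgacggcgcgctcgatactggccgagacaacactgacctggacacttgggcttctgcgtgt
Hsp90b1: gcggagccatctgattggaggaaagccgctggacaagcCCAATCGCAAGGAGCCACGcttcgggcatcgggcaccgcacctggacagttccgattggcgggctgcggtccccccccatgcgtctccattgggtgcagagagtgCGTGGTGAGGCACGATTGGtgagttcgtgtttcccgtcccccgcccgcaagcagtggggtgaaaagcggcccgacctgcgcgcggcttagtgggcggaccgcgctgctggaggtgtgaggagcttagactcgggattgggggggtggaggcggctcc
Creld2: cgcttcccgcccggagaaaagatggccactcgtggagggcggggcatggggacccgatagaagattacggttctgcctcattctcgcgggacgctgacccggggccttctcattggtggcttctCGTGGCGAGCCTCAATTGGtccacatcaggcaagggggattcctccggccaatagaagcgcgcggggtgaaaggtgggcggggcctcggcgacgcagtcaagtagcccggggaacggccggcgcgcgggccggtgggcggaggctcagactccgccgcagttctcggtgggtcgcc

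The chaperones that heat shock factor HSF1 controls work mostly in the cytosol, with Hspd1 and Hspe1 in mitochondria. All 21 genes of this list had lower means by day, as had 59.6% of all genes tested, with a median log2 difference of -0.28. With TPM as deposited the median was -0.34, against -0.09 over all genes. Unadjusted p-values under 0.05 were found for 16 of the 21, against 9.07% of all genes, and 0 were called. Without the 6 doubted libraries 20 of the 21 were lower by day, the median was -0.19 and 8 had an unadjusted p-value under 0.05. The nearest were Chordc1, a partner of HSP90, with medians of 14.8 TPM by day and 21.4 TPM by night (-0.39 ± 0.09, SE, limma adjusted p = 0.0559), and Hsp90aa1, the inducible HSP90, with 48.5 and 79.7 TPM (-0.62 ± 0.14, adjusted p = 0.0617). The cosine called 4 of the 21 (all genes 4.36%): Dnajb1 at 14.8 h, Chordc1 at 17.6 h, Hsp90aa1 at 18.4 h and Hspb1 at 20.1 h. This count ranged from 0 to 11 over the settings, with 0 when all 6 doubted libraries or all libraries of replicate 1 were left out, 2 without 16:30 h replicate 2 alone, 10 without 1:30 h and 11 without 19:30 h. The inducible HSP70 gene Hspa1a went from 1.88 TPM at 7:30 h to 20.5 TPM at 16:30 h on average, and to 3.20 TPM at 19:30 h, with night libraries between 2.13 and 44.7 TPM. It shares nearly all of its coding sequence with Hspa1b, so the split of reads between them is uncertain, and neither was called (adjusted p = 0.0638 and 0.0812 by the cosine). The lowest time-point mean was at 7:30 h for 10 of the 21 genes, at 10:30 h for 6 and at 4:30 h for 5. The highest was at 16:30 h for 12, at 22:30 h for 7 and at 13:30 h for 2.

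Genes known to respond to lower temperature had the opposite sign. Srsf5, a splicing factor, had medians of 91.9 TPM by day and 61.0 TPM by night (0.60 ± 0.17, limma adjusted p = 0.147), Cirbp 39.2 and 31.8 TPM (0.43 ± 0.14, adjusted p = 0.216) and Rbm3 69.4 and 62.6 TPM (0.34 ± 0.17, adjusted p = 0.550). The groups overlapped in all 3 genes, and only Srsf5 was called by the cosine, with a peak at 5.8 h (adjusted p = 0.0390), a call that was lost in 15 of 25 settings. Without the 6 doubted libraries the median of the 3 differences was 0.30, against 0.43 with them, and 1 of the 3 had an unadjusted p-value under 0.05, against 3.

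**Figure D5:**
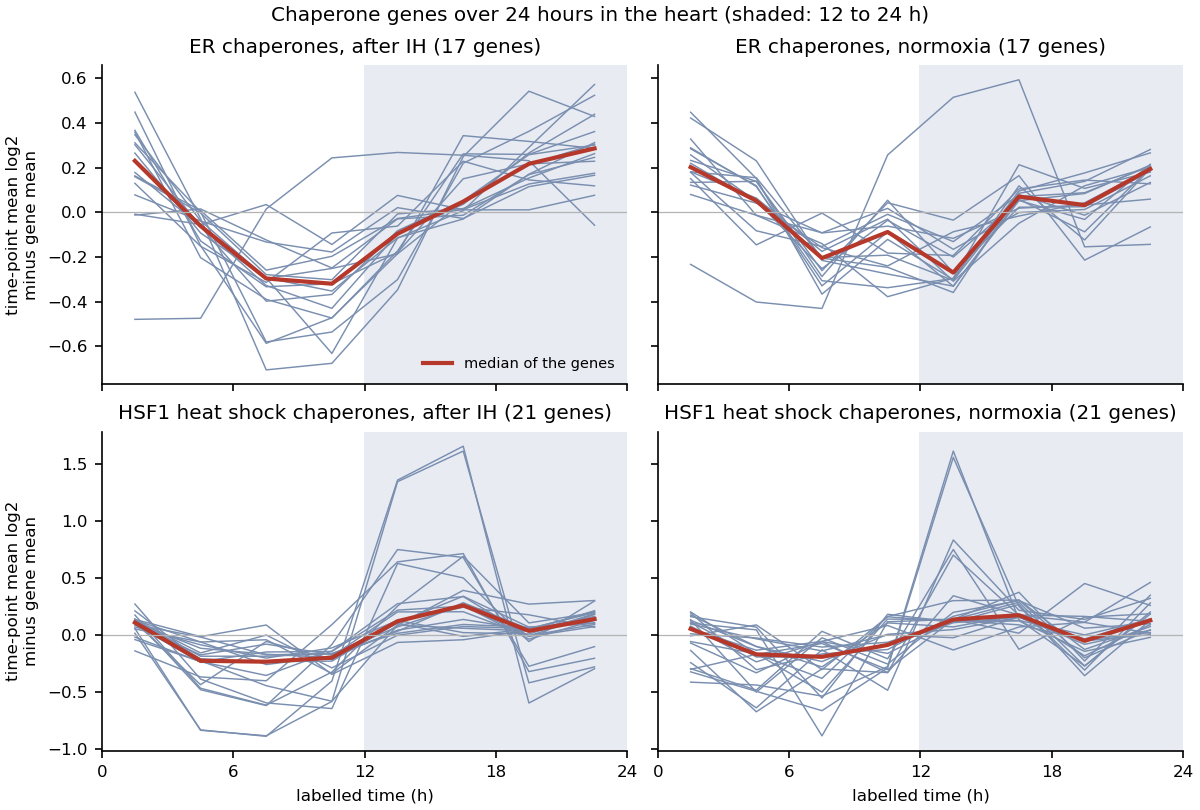
Time-point means of each ER chaperone (17 genes, top) and each HSF1-controlled chaperone (21 genes, bottom) as log2 minus the gene's mean, after IH (left) and in normoxia (right), against the labelled time in hours; thin lines are genes and the thick red line is their median. After IH the ER median runs from -0.32 at 10:30 h to 0.29 at 22:30 h, and the HSF1 median from -0.24 at 7:30 h to 0.26 at 16:30 h. In normoxia the ER median runs from -0.27 at 13:30 h to 0.20 at 1:30 h, and the HSF1 median from -0.19 at 7:30 h to 0.17 at 16:30 h.

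Targets of the glucocorticoid receptor, through which the daily corticosterone surge acts on the heart, gave 0 calls in day against night (all genes 0.219%) and 6 by the cosine (all genes 4.36%), of 15 tested genes. Of these 6, 5 peaked between 11.6 and 14.5 h. Zbtb16, a transcriptional repressor, had an amplitude of 1.21 at 13.46 h (limma adjusted p = 1.75e-05), with means of 3.22 TPM at 1:30 h and 22.0 TPM at 13:30 h. Fkbp5, which dampens the receptor itself, had 0.96 at 14.5 h (adjusted p = 0.000161), and Tsc22d3, known as GILZ, 0.57 at 14.2 h (adjusted p = 0.00180). Mt2 and Klf15 peaked at 11.6 h each. Cdkn1a, a brake on the cell cycle, peaked apart from them, at 21.1 h (0.80, adjusted p = 1.67e-05). Means at 10:30 h, such as 29.5 TPM for Fkbp5 against 8.37 TPM at 7:30 h, rest on 2 libraries that were both high in lymphocyte markers, and between 4 and 7 of the 15 genes were called by the cosine over the settings. Without the 6 doubted libraries Fkbp5 was called in day against night (-1.0, adjusted p = 0.0398), against -0.76 ± 0.29 with them (adjusted p = 0.394). With those 6 left out, no library of 10:30 h remained.

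Calls among the genes of fuel use are to be read against the 4.36% of all genes that the cosine called. Of 23 genes of fatty acid uptake and oxidation it called 1, Cpt1a, which admits fatty acids into mitochondria, with a peak at 7.4 h (amplitude 0.24, limma adjusted p = 0.0457). Its highest and lowest means, 15.8 TPM at 10:30 h and 10.2 TPM at 16:30 h, include the libraries high in lymphocyte markers, and its call was lost in 18 of 25 settings. Among 12 targets of PPARalpha, which is active in fasting, Cpt1a and the mitochondrial carrier Ucp3 were called, Ucp3 with 0.53 at 7.6 h (adjusted p = 0.0205). G0s2, an inhibitor of the lipase that releases stored fat, lay opposite, with medians of 77.1 TPM by day and 149 TPM by night. Its difference missed the threshold (-0.72 ± 0.16, adjusted p = 0.0559), and its peak was at 16.1 h (0.49, adjusted p = 0.0382). Ppp1r3c, which directs a phosphatase to glycogen, was the 1 called of 13 glycogen genes, with a peak at 20.2 h (0.39, adjusted p = 0.00841), and 2 of 26 genes of glucose uptake and glycolysis were called, Pfkfb1 and Pfkp. Of 30 nuclear genes and 13 mitochondrial genes of the respiratory chain 0 were called by either test. Of the 30 nuclear genes 27 had lower means by day, against 59.6% of all genes, with a median difference of -0.05. The 13 mitochondrial genes all had positive differences with a median of 0.15, where 3320 of all 8227 genes had positive ones. With TPM as deposited 12 of 13 were positive. Without the 6 doubted libraries 11 of 13 were positive, the median was 0.08 and 0 had an unadjusted p-value under 0.05. White adipocyte markers had lower means by day in 7 of 7 tested genes, against 59.6% of all genes, with a median of -0.68 and 0 calls. Their summed level ran from 775 to 3727 TPM by day and from 1204 to 3043 TPM by night, and its part in the values of G0s2 was not tested.

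Of 24 sarcomere genes the cosine called 1, a share near the 4.36% of all genes. This was Tcap, the titin cap of the sarcomere, with means of 500 TPM at 1:30 h and 1456 TPM at 13:30 h (amplitude 0.83, peak 10.0 h, limma adjusted p = 2.23e-05). Gja1, the main gap junction gene of the ventricle, was the 1 called of 18 channel and junction genes, again near that share, with its peak at 1.6 h (0.39, adjusted p = 0.0242), and none of 15 calcium-handling genes was called. Of 13 natriuretic peptide and hypertrophy genes, Nppb, which encodes the stress hormone BNP, peaked at 23.6 h (0.80, adjusted p = 0.0307) and the calcineurin inhibitor Rcan1 at 23.7 h (0.57, adjusted p = 3.81e-06). All 8 atrial markers had lower means by day, as had 59.6% of all genes tested, with a median of -0.42 and 0 calls. Among them Myl7 (-0.39 ± 0.31, adjusted p = 0.784) and Myl4 (-0.61 ± 0.32, adjusted p = 0.582) were lowest in the library of 7:30 h that was low in atrial markers, at 60.4 and 44.8 TPM.

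Of 8 HIF and HIF-hydroxylase genes, Egln3, a hydroxylase that marks HIF for destruction, was called by the cosine alone (all genes 4.36%), with a peak at 22.0 h (amplitude 0.35, limma adjusted p = 0.00685). Among 20 HIF targets 1, P4ha2, was called in day against night (all genes 0.219%), as above, and 2 by the cosine, P4ha1 and Egln3. Its paralog P4ha1 had medians of 16.0 and 26.0 TPM (-0.57 ± 0.13, adjusted p = 0.0710) and peaked at 19.7 h (0.47, adjusted p = 0.00375). The vasoconstrictor gene Edn1 had 4.07 and 5.68 TPM (-0.40 ± 0.10, adjusted p = 0.0767), with a peak at 18.9 h.

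Wee1, a kinase that holds back mitosis, had an amplitude of 0.69 at 14.01 h (limma adjusted p = 1.45e-06), with means of 3.13 TPM at 4:30 h and 10.4 TPM at 13:30 h. Of 9 growth and atrophy regulators the cosine called 4 (all genes 4.36%), Pik3ip1 and Pik3r1, which bear on PI3 kinase, at 10.52 and 13.99 h, the transcription factor Foxo3 at 13.3 h and Sesn1, an inhibitor of mTORC1, at 15.02 h. The cosine called 0 of 17 genes of NRF2 and peroxide defence, 0 of 9 of NAD and sirtuins, 0 of 17 of autophagy and 0 of 3 tested proliferation genes, and none of these was called in day against night. With 4.36% of all genes called, a count of 0 in lists this short says little. Beside Dbp, Nr1d2 and Nfil3, the smallest cosine p-values outside the day-night calls were those of the tetraspanin gene Tspan4, with 0.69 at 10.4 h (adjusted p = 3.56e-08), and of the matrix gene Spon2, with 1.31 at 23.3 h (adjusted p = 6.86e-08). Day medians and night medians of Spon2 were 5.86 and 5.25 TPM.

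Whether these differences were particular to IH was asked with the 24 normoxic hearts, as an interaction of treatment with day or night over 47 libraries and 8127 genes. It called 0 genes, with limma, in the design as chosen and under every alternative, and 69 genes (0.849%) had an unadjusted p-value under 0.05. The test of the 24-hour cosine between treatments, added after the data had been seen, also called 0 genes, with 28 (0.345%) under an unadjusted 0.05. Both shares lie below what that threshold gives where nothing differs. These counts do not show that day and night differed alike in both treatments, and the normoxic libraries scattered more. The median SD within a time point was 0.25 after IH and 0.36 in normoxia on the log2 scale, and 87.5% of genes varied more in normoxia, where lymphocyte markers summed to 2848 TPM in 7:30 h replicate 3 and 1840 TPM in 19:30 h replicate 3.

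Nr1d1 differed between day and night by 1.97 ± 0.25 in normoxia against 2.09 ± 0.30 after IH. The difference of the differences was 0.11 with a 95% interval from -0.70 to 0.93 (limma p = 0.778). Cry1 differed by -0.83 ± 0.16 in normoxia (adjusted p = 0.0608) against -0.91 ± 0.13 (interval of the difference -0.50 to 0.36, p = 0.750). Among the smallest interaction p-values were those of the ubiquitin ligase gene Ubr4, with differences of 0.28 after IH and -0.17 in normoxia (p = 0.00402), and of Magt1, a magnesium transporter of the ER glycosylation complex (-0.20 and 0.06, p = 0.0129), with Atad1 and Mrpl19 after them. All 4 had adjusted p-values near 1.

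The ER chaperones are described further because many of them were called after IH, so their amplitudes there were picked to be high, and a larger amplitude after IH is no support for a difference. Their median amplitude was 0.34 after IH and 0.20 in normoxia, larger after IH in 15 of 17 genes. Over all 350 genes that were called by the cosine after IH and tested in both, which were picked in the same way, the medians were 0.28 and 0.23, and 77.1% were larger after IH. Without the 6 doubted IH libraries the chaperone medians were 0.32 and 0.20, with 14 of 17 larger. The cosine interaction gave an unadjusted p-value under 0.05 for 0.345% of all genes, for 18 of those 350 genes and for 4 of the 17. The 17 are described because of their calls after IH, so this count is no support for a difference either. The 4 were Manf, Creld2, Hsp90b1 and Sdf2l1, and Manf had the smallest (limma p = 0.00148). Without those 6 libraries the cosine interaction gave 1 of the 17, and it called none of them in either. In normoxia the lowest time-point means of the list fell at 7:30 h for 6 genes, at 10:30 h for 3 and at 13:30 h for 8, and the highest at 1:30 h for 10, at 22:30 h for 6 and at 16:30 h for 1. Of the 13 mitochondrially encoded genes 3 had an unadjusted p-value under 0.05 in the interaction with day or night, against 0.849% of all genes, and 0 were called. Their median was 0.36 (IH minus normoxia) against 0.01 over all genes.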

How the data were processed

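Hearts of male mice were processed to poly(A), strand-specific paired-end libraries. The authors quantified reads with kallisto against Ensembl release 102 (mm10, GRCm38; FastQC 0.11.3 and DESeq2 are also in the submitters' notes) and deposited TPM per gene, so every library has about one total; counts and depth are not analysed here, and the number of libraries and the spread between mice set the precision. For the comparisons each library was divided by its median ratio to the genes' geometric means, and log2 was taken after adding 0.5 TPM, so that changes of low genes are understated. Day against night, the 24-hour cosine and the interaction with treatment were tested with limma 3.58.1 in R 4.3.3, with an intensity trend, 2-sided where signed, and Benjamini-Hochberg adjustment over all genes tested; a call is an adjusted p of 0.05 or less. The design has no batch term, since the labels name no batch. Python 3.11.15, numpy 2.4.6, pandas 2.3.3, scipy 1.17.1 and matplotlib 3.10.9 were used for permutation tests, counts and figures. Positions come from GENCODE M21, which placed 120 of 121 named genes (H2aw was not placed), and promoters from RefSeq tables of GRCm38.p6. Methods were tested on simulated data.

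The members and the gene lists were chosen with earlier results of these data known, so no list is independent evidence. Named genes are those called in day against night (at most 12 each way, leaving out predicted genes), all clock genes, up to 3 of each other list with the smallest adjusted p, and up to 5 each by the interaction and the cosine; other genes named were chosen after their values were seen, and some that the rule picks are not reported here. Alternatives were the scaling, pseudocount, filter, replicate block, number of genes detected, the library left out put back, and each replicate number or time point dropped in turn. Same-numbered day and night libraries deviated together with correlations across genes of 0.64, 0.37 and -0.11, which does not settle whether the numbers mark pairs, and they were not taken as such.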

Additional observations from a re-analysis of the deposited data

Results flagged for a closer look

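One library outside the comparisons carried a signal that the others lacked. In replicate 2 of 10:30 h after IH, which was left out throughout, 12 cerebellum markers summed to 209.07 TPM, against 4.99 to 14.6 TPM in the 23 libraries used. All 12 markers stood above every other heart library after IH. The Purkinje cell gene Pcp2 was at 62.5 TPM, against at most 0.1397 TPM in the others, and each marker was at 1.82% to 3.42% of its mean level in the cerebellum libraries. How these transcripts came to be in the library was not tested. Groups at a single time point hold 3 libraries or fewer and the day and night groups more than 10, so no test for a stray value within a group was made.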

How the results depend on the processing

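The calls in day against night moved with most choices and those of the cosine with fewer, while 0 genes were called between treatments and 0 of 17 measures of library make-up under each setting tried for them. In day against night, 18 genes were called; TPM as deposited gave 3 (1 higher by day, 2 by night; all-gene median -0.09), a limit of 1 TPM 9, the 10:30 h replicate 2 put back 30, the count of detected genes in the model 36, and a mean per time point 49. Leaving out 1 replicate number gave 0 to 9 calls and leaving out 1 time point 2 to 88. Settings chosen after the data had been seen gave 35 (3 libraries high in lymphocyte markers left out), 33 (16:30 h replicate 2 left out), 8 (library low in atrial markers left out), 8 (2 libraries high in lung markers left out) and 16 (all 6). The settings with 35 and 16 calls hold no library of 10:30 h. With a replicate block, although it is not known whether the numbers pair the mice (same-numbered day and night libraries correlated at 0.64, 0.37 and -0.11), 44 genes were called in day against night and 471 by the cosine. The cosine called 359 genes, and 155 with TPM as deposited, 232 at a limit of 10 TPM, 551 with the count of detected genes in the model, 92 to 195 without 1 replicate number, 218 to 311 without 1 time point and 173 without all 6 libraries. The cause of these moves was not tested.

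No named gene that was called changed direction. In 35 cases a difference that was not called changed sign, with adjusted p-values of at least 0.789. Leaving out 1 replicate number or time point, the log2 differences ran from -0.20 to 0.14 for Cry2, -0.15 to 0.38 for Tef, -0.12 to 0.40 for Hlf, -0.74 to 0.23 for Spon2, -0.11 to 0.17 for Pcna, -0.027 to 0.64 for Top2a, -0.026 to 0.19 for Parp1, -0.28 to 0.025 for Trdn and -0.12 to 0.00079 for Fbxw11. Without all 6 libraries Per1 was at -0.27, Tef at -0.28, Hlf at -0.17, Fbxw11 at 0.0029 and Spon2 at 0.45. Without the 3 libraries high in lymphocyte markers Tef was at -0.039, Hlf at -0.016 and Spon2 at 0.036, and without the 2 high in lung markers Tef was at -0.0096, Pcna at -0.0048 and Spon2 at 0.018. Pcna was at -0.059 with TPM as deposited and -0.012 with the count of detected genes in the model.

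Without counts, a gene at a low TPM cannot be given a counting error, and 23 mice at 3 hours' spacing limit the acrophase to about that spacing.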
